A study of Mus musculus with 2 samples.

Results

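The Zic genes encode transcription factors with C2H2 zinc fingers and are named for their abundance in the cerebellum. The members described here were the rows of the deposited count table named Zic1, Zic2, Zic4 and Zic5, 4 of 22423 genes, picked by gene name and not by a measured value. Bulk RNA was sequenced from mouse cerebellum at postnatal day 3, on the C57BL/6 strain, in a conditional Prdm16 knockout (Prdm16cKO, here cKO) and in Prdm16fl/fl control mice, whose Prdm16 alleles are floxed. The sources used here do not give the Cre driver, the deleted exons or the sex of the mice. The design text mentions triplicates, while the table holds 1 column of read counts per genotype, so each column was taken as 1 library and no difference below has a replicate check.

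Zic proteins bind DNA through zinc fingers related to those of the Gli factors, the transcriptional effectors of Hedgehog signalling, and can act with or against Gli proteins. In the developing cerebellum they are made in granule neuron progenitors and their granule neuron descendants, and also in the meninges that cover the brain. In humans, deletions that remove ZIC1 together with ZIC4 are linked to Dandy-Walker malformation of the cerebellum, and ZIC2 mutations cause holoprosencephaly. Zic1 and Zic4 are neighbours on chromosome 9 and are read in opposite directions, as are Zic2 and Zic5 on chromosome 14.

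Because the genes are paralogs, a coding stretch where they are much alike is shown first, from the GENCODE vM21 transcripts, with the bases by which it still differs. The stretch is centred on the longest run that Zic1 shares with Zic2, 60 bases are given for each gene from 5′ to 3′, and capitals mark bases that differ from Zic1.
Zic1: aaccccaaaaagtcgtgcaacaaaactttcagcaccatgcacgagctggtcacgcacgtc
Zic2: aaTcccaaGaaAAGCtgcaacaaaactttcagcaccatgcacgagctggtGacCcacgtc
Zic4: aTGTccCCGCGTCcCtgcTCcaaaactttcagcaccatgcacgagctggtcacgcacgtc
Zic5: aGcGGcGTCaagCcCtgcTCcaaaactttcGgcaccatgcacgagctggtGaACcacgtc

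Against Zic1 this stretch had 8 differing bases in Zic2, 13 in Zic4 and 14 in Zic5. The longest identical run between the coding regions of any pair was 42 bases, between Zic1 and Zic4, and Zic1 and Zic2 shared 35. At a window of 50 bases, used as a stand-in because no source used here states the read length, 0 of 2827 windows of Zic2 transcripts occurred in a transcript of any other gene. Found in a transcript of another gene were 41 of 5674 windows of Zic1, 433 of 10361 of Zic4 and 362 of 4840 of Zic5. Zic1 and Zic4 had 14 windows in common, counting both strands. Exons of these genes overlap on opposite strands by 60 bases. The other Zic1 windows occurred in Cd93 (1144 cKO and 1142 control reads) or Unc45a (1112 cKO and 1162 control reads). The other Zic4 windows were shared with Gm37477, an opposite-strand transcript with 73 cKO and 66 control reads, and the Zic5 windows with Gm12241 and Tmem236, which had at most 8 reads in either library. Strand use during counting is not given, so reads from such overlaps cannot be assigned to a strand.

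Markers of the labelled tissue were looked up. All 18 listed granule neuron progenitor genes had at least 10 reads, but so did 18787 of all 22423 genes. That count therefore cannot tell the tissue. The Purkinje cell genes Pcp2 and Calb1 were detected in both libraries. The libraries held 17501279 cKO and 18600299 control reads. The targeted gene Prdm16, a zinc finger transcriptional regulator, had 118 cKO and 315 control reads, a log2 ratio of -1.30 (-1.62 to -0.99). The libraries stood apart in transcripts that the genotype labels do not name. Xist, which is expressed from the inactive X chromosome, had 21 cKO and 14779 control reads, and 4 Y-linked genes together had 2352 cKO and 7 control reads. These 4 are Ddx3y, Kdm5d, Uty and Eif2s3y. Although the labels do not state sex, by these reads the cKO library is male and the control library female. This difference in sex and the genotype cannot be told apart with 1 library each. Choroid plexus transcripts were far lower in the cKO library. What part any of these plays in any Zic value was not tested. In bulk tissue, fewer cells of a type cannot be told apart from less RNA per cell.

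The Zic genes were abundant and close to level between the genotypes. Together the 4 members took 29537 cKO and 31579 control reads, 0.169% of cKO and 0.170% of control gene reads. After TMM scaling (a trimmed mean of log ratios), their summed level was 1705 CPM (reads scaled to the library size) in the cKO and 1680 CPM in the control. The log2 ratio of the sums, cKO over control, was 0.02 (-0.0013 to 0.04). Brackets here and below hold exact 95% intervals, which cover counting error alone: Poisson for a level, binomial for a ratio or a share.

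Zic1, which is needed for normal cerebellar growth in mice, had 15939 cKO and 16884 control reads, or 920 CPM (906 to 935) in the cKO and 898 CPM (885 to 912) in the control. Its log2 ratio was 0.03 (0.0036 to 0.066), so that the cKO level stood 2.45% above the control, with counting limits of 0.253% and 4.70%. The level intervals of the libraries overlapped.

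Zic2, known from mouse and human forebrain development, had 7537 cKO and 8272 control reads. Its level was 435 CPM (425 to 445) in the cKO and 440 CPM (431 to 450) in the control, with a log2 ratio of -0.02 (-0.06 to 0.03). At this depth and with TMM scaling a difference was not detectable, and the interval of the difference ran from -4.17% to 2.03% of the control level.

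Zic4, the neighbour of Zic1, had 3397 cKO and 3750 control reads, 196 CPM (190 to 203) in the cKO and 200 CPM (193 to 206) in the control. The log2 ratio was -0.02 (-0.09 to 0.04), a difference between -6.18% and 3.01% of the control level. Here too no difference was detectable with TMM scaling.

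Zic5, the neighbour of Zic2, had the fewest reads and the largest ratio of the 4 members. It had 2664 cKO and 2673 control reads, 154 CPM (148 to 160) in the cKO and 142 CPM (137 to 148) in the control. The log2 ratio was 0.11 (0.04 to 0.19), a cKO level 8.16% above the control with limits of 2.47% and 14.2%. Its level intervals did not overlap, by a narrow margin.

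**Figure D1:**
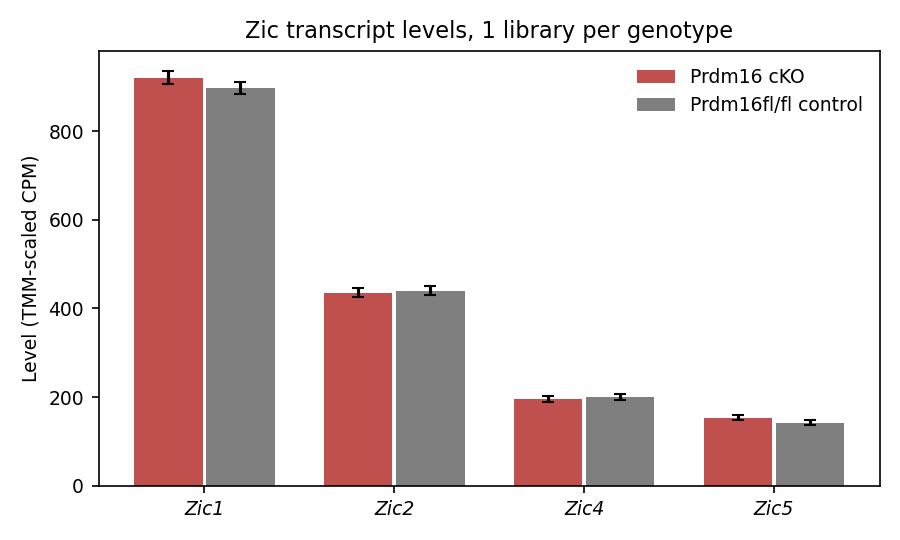
Levels of the 4 Zic members in TMM-scaled CPM, cKO bars left of control bars, with exact Poisson 95% intervals as error bars. Zic1 stood at 920 and 898 CPM in the cKO and control libraries, and Zic5, with the largest difference, at 154 CPM in the cKO and 142 CPM in the control.

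In the authors' deposited table the log2 fold changes were 0.0048 for Zic1, -0.05 for Zic2, -0.05 for Zic4 and 0.08 for Zic5. Its p-values, which compare the 2 columns and not the genotypes, were 0.762 for Zic1, 0.0435 for Zic2, 0.109 for Zic4 and 0.0354 for Zic5. The adjusted p-values in the authors' deposited table were 0.664 for Zic1, 0.112 for Zic2, 0.213 for Zic4 and 0.0972 for Zic5, and that table marks none of the 4 as significant. For Zic1 the adjusted value is below the p-value, which an adjustment that only raises p-values would not give.

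Set against all genes, none of the 4 members reached a 2-fold difference with an interval that excludes a ratio of 1, a rule met by 3.42% of 18787 genes with at least 10 reads (1.21% higher and 2.2% lower in the cKO). Intervals alone excluded a ratio of 1 for 2 of the 4 members, Zic1 and Zic5, both above it, and for 32.6% of all these genes, 17% above and 15.5% below it. Of 6 scalings tried, the Zic1 interval lay above that ratio with TMM and upper quartile scaling, held it with 3 others and lay below it with the housekeeping median set to 0 (-0.12 to -0.06). It also held it with TMM and 99% intervals. With the housekeeping median set to 0, the same rule gave 1191 genes above and 5829 below, in place of 3201 and 2916. At the depth of the Zic genes such narrow intervals are common. Among 1581 genes with at least 5000 reads over both libraries, 71% had intervals that excluded a ratio of 1, 49.1% above and 21.9% below. A count of 2 in 4 members is not above that background. Of these well-covered genes 0.19% passed the 2-fold rule, namely Xist, Ttr and Enpp2, all lower in the cKO and named here after their values were seen.

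The members lay in the middle of the well-covered genes. The median log2 ratio was 0.0094 over the 4 members, against 0.0079 over all 18787 genes and 0.06 over the 1581 well-covered ones, whose robust SD was 0.15. Zic2 was closer to 0 than 92.2% of the well-covered genes, Zic4 than 88.4%, Zic1 than 83.7% and Zic5 than 48.6%. Nearness to 0 is not nearness to the centre of these genes, whose median was 0.06, and it depends on the scaling. By position, 29.9% of the well-covered genes had a lower ratio than Zic4, 31.9% than Zic2, 44.1% than Zic1 and 65.1% than Zic5. Within 0.05 of 0 on the log2 scale were 3 of the 4 members and 23.3% of the well-covered genes, and within 0.2 were 4 of 4 members and 78.9% of those genes.

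**Figure D2:**
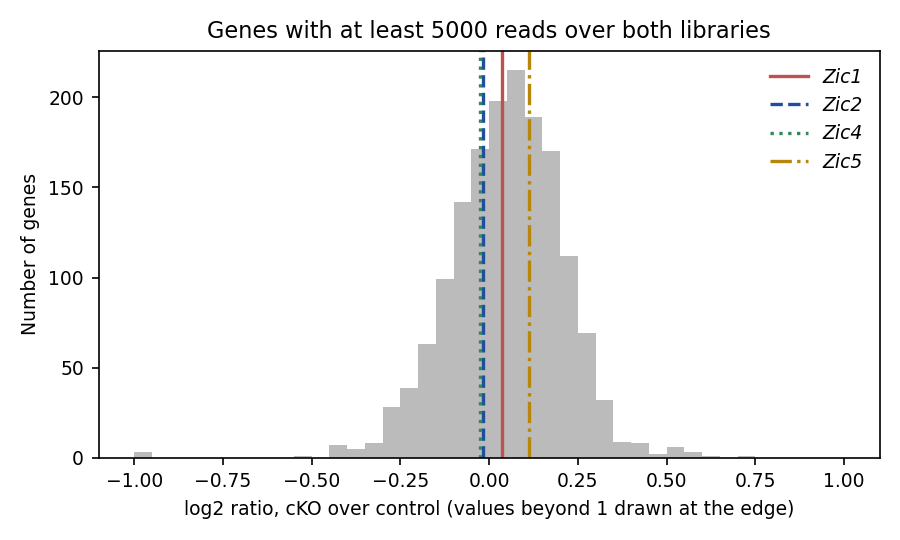
Histogram of log2 ratios, cKO over control, for the 1581 genes with at least 5000 reads over both libraries, with 1 vertical line for each Zic member. The lines fall between -0.02 (Zic4 and Zic2) and 0.11 (Zic5), inside the bulk of a distribution with median 0.06.

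The balance between members does not depend on how the libraries are scaled. Zic1 made up 54.0% (53.4 to 54.5) of the member reads in the cKO and 53.5% (52.9 to 54.0) in the control. Zic2 made up 25.5% (25.0 to 26.0) in the cKO and 26.2% (25.7 to 26.7) in the control, and Zic4 11.5% (11.1 to 11.9) in the cKO and 11.9% (11.5 to 12.2) in the control. Zic5 made up 9.02% (8.69 to 9.35) in the cKO and 8.46% (8.16 to 8.78) in the control. For each of the 4, the share intervals of the libraries overlapped, which does not show that the shares were equal.

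Pair by pair, the cKO read ratio was divided by the control read ratio, with an exact conditional interval. Of 6 pairs, 2 had intervals that excluded 1, and both involved Zic5. There were 2.83 Zic2 reads per Zic5 read in the cKO and 3.09 in the control, a quotient of 0.914 (0.859 to 0.973). There were 1.28 Zic4 reads per Zic5 read in the cKO and 1.40 in the control, a quotient of 0.909 (0.846 to 0.976). Zic1 over Zic5 stood at 0.947 (0.894 to 1.00408), Zic1 over Zic2 at 1.04 (0.997 to 1.08), Zic1 over Zic4 at 1.04 (0.990 to 1.10) and Zic2 over Zic4 at 1.01 (0.951 to 1.06). Zic5 thus stood slightly higher in the cKO library relative to Zic2 and Zic4, by an amount for which no spread between mice is at hand. Both quotients use the same Zic5 reads. The well-covered median of 0.06 lies between Zic5 (0.11) and both Zic2 (-0.02) and Zic4 (-0.02), so the quotients do not tell which gene differed. Single-gene intervals excluded a ratio of 1 for 71% of the well-covered genes, and no such share was computed for pairs of genes.

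**Figure D3:**
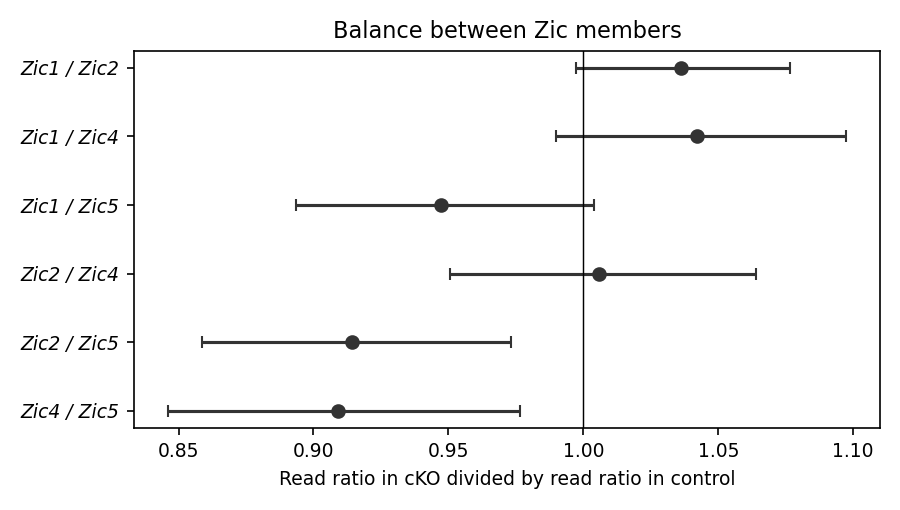
Quotient of read ratios for the 6 pairs of Zic members, the ratio in the cKO divided by that in the control, with exact conditional 95% intervals as bars and a line at 1. The intervals of Zic2 over Zic5 (0.914) and Zic4 over Zic5 (0.909) lie below 1 and the other 4 cross it.

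The neighbouring pairs were also summed. Zic1 plus Zic4 had 19336 cKO and 20634 control reads and a log2 ratio of 0.02 (-0.0041 to 0.05). Zic2 plus Zic5 had 10201 cKO and 10945 control reads and a log2 ratio of 0.02 (-0.02 to 0.06). Neither sum differed detectably at this depth with TMM scaling. With the housekeeping median set to 0, the intervals of both sums lay below 0 (-0.13 to -0.07 for Zic1 plus Zic4, -0.15 to -0.07 for Zic2 plus Zic5).

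The start regions of the chromosome 9 neighbours are shown because both genes had ratios near 0 alike, while the sequences at their RefSeq starts differ in CG content. These starts lie apart, although the GENCODE vM21 exons of the genes overlap, and starts in other annotations were not examined. The windows come from RefSeq on build GRCm38.p6, run 5′ to 3′ on the strand of the gene, and capitals mark CG dinucleotides. The Zic1 window is chr9:91365719-91366018 on the minus strand and the Zic4 window chr9:91368722-91369021 on the plus strand.
Zic1: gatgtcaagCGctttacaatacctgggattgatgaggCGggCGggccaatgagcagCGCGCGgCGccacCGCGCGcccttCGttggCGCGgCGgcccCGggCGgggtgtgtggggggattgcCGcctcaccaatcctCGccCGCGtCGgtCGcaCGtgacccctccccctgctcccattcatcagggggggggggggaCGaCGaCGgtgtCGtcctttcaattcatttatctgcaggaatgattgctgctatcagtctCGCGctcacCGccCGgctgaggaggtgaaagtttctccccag
Zic4: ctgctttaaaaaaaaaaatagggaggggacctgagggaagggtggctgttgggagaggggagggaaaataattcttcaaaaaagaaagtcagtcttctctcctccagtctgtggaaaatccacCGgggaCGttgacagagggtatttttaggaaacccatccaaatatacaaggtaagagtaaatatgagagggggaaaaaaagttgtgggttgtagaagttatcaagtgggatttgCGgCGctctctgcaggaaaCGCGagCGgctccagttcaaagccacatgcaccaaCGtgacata

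The Zic1 window held 31 CG dinucleotides and 65.3% G plus C, and its CG content relative to chance (observed over expected) was 0.969, higher than in 92.3% of 32841 promoter windows of the same length. The Zic4 window held 8 CG dinucleotides, 46.0% G plus C and a value of 0.545, higher than in 60.8% of windows. The Zic5 window, on chromosome 14, held 15 CG dinucleotides, 62.7% G plus C and a value of 0.510. Over all windows the medians were 52.7% and 0.384. A ZIC-type motif, CAGCAGG on either strand, was in 10.5% of all windows and a GLI-type motif, GACCACCC on either strand, in 0.807%. Neither string occurred in the windows of Zic1, Zic4 or Zic5.

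The order of the levels was the same in both libraries. By reads, Zic1 held rank 63 of all genes in the cKO and rank 64 in the control, Zic2 rank 247 in the cKO and 218 in the control, Zic4 rank 936 in the cKO and 881 in the control, and Zic5 rank 1353 in the cKO and 1496 in the control. Per kilobase of annotated exon (RPKM, from GENCODE vM21 exon unions), Zic1 stood at 162 in the cKO and 158 in the control, and Zic2 at 151 in the cKO and 153 in the control. Zic5 followed with 31.5 RPKM in the cKO and 29.1 in the control, and Zic4 with 19.0 in the cKO and 19.3 in the control. Zic4 has several annotated transcripts with retained introns, and its exon union of 10335 bases is far longer than its longest coding transcript of 3891 bases. Per kilobase of the longest coding transcript, Zic2 instead stood above Zic1, and Zic4 above Zic5. Zic2 had 178 RPKM in the cKO and 180 in the control, and Zic1 164 in the cKO and 160 in the control. Zic4 had 50.4 in the cKO and 51.3 in the control, and Zic5 32.3 in the cKO and 29.8 in the control. Zic1 and Zic2 thus stood above Zic4 and Zic5 by either length, while the order within each of these couples depended on the length used.

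Among the relatives of the Zic factors, the Hedgehog effectors Gli1 and Gli2 were higher in the cKO library. Gli1, which reports Hedgehog signalling, had 2279 cKO and 1901 control reads (log2 ratio 0.38, 0.29 to 0.47), and Gli2, a main activator of the pathway, 1830 cKO and 1579 control reads (0.33, 0.23 to 0.43). Gli3, which acts mostly as a repressor, had 377 cKO and 431 control reads (-0.08, -0.28 to 0.13). The related Glis1 (0.03, -0.71 to 0.77), Glis2 (0.07, -0.08 to 0.21) and Glis3 (-0.24, -0.57 to 0.08) had intervals that held 0. Of the 6 relatives, 0 passed the 2-fold rule, 2 had intervals above 0 and 0 below, with a median of 0.05 (-0.08 with the housekeeping median set to 0). Over all genes, 17% of intervals lay above 0 and 15.5% below, or 49.1% and 21.9% among the well-covered ones. The intervals of Gli1 and Gli2 lay above those of all 4 Zic members.

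Genes tied to Zic factors in other work, or to the same malformation, did not share 1 direction. Atoh1, the determinant of granule neuron progenitors, whose expression Zic1 represses in chick, had 789 cKO and 560 control reads, a log2 ratio of 0.61 (0.45 to 0.77). Apoe, the lipid carrier whose human promoter Zic proteins bind, had 18894 cKO and 18977 control reads (0.11, 0.08 to 0.14). Foxc1, a meningeal transcription factor also linked to Dandy-Walker malformation in humans, had 510 cKO and 472 control reads (0.23, 0.05 to 0.41). Ephb1, an axon guidance receptor under Zic2 control in mouse retina, stood at -0.03 (-0.12 to 0.06), the Hedgehog inhibitor Sufu at -0.02 (-0.11 to 0.07) and the ligand Wnt3 at 0.20 (-0.02 to 0.42). The dopamine receptor gene Drd1 had 3 cKO and 15 control reads (-2.20, -4.63 to -0.38). Of these 7 genes, 0 were higher and 1 was lower by the 2-fold rule, beside 1.21% of all genes higher and 2.2% lower. The median of the 7 was 0.11, or -0.013 with the housekeeping median set to 0.

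Markers of the cell types known to express Zic genes are set beside a background in which intervals lay above 0 for 17% and below 0 for 15.5% of all genes, or 49.1% above and 21.9% below among the well-covered ones. The medians below compare with 0.06 over the well-covered genes and 0.12 over the housekeeping genes. With the housekeeping median set to 0 their median log2 ratio was -0.012 for granule neuron progenitors, -0.033 for postmitotic granule neurons and 0.10 for meningeal fibroblasts. Of 18 granule neuron progenitor genes, 12 had intervals above 0, 3 below and 3 held 0, with a median log2 ratio of 0.11 and 0 past the 2-fold rule. Atoh1 and the bHLH gene Nhlh1 (0.43, 0.32 to 0.53) were the highest, and the homeobox genes Meis2 (-0.81, -1.01 to -0.61) and Lhx9 (-0.75, -1.22 to -0.30) the lowest. The summed level of the list was 2219 CPM in the cKO and 2081 CPM in the control. Of 16 postmitotic granule neuron genes with at least 10 reads, 9 had intervals above 0 and 3 below, with a median of 0.09, from Grin2c (-0.51, -0.81 to -0.22) and Unc5c (-0.09, -0.16 to -0.02) to the synaptic organizer gene Cbln1 (0.28, 0.24 to 0.32) and the bHLH gene Neurod1 (0.56, 0.50 to 0.62). Their sum was 4995 CPM in the cKO and 4626 CPM in the control.

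Of 15 meningeal fibroblast genes, 13 had intervals above 0 and 0 below, beside the 17% of all genes and 49.1% of well-covered genes above 0, with a median of 0.22 and 0 past the 2-fold rule. Crabp2 (0.56, 0.26 to 0.86), a retinoic acid binding protein gene, and Ptgds (0.53, 0.49 to 0.56) were the highest, and Bgn (-0.04, -0.13 to 0.05) and Igf2 (0.10, 0.07 to 0.13) the lowest. Their sum was 3590 CPM in the cKO and 3050 CPM in the control, and 0 of the genes were at 0 reads in either library. All 4 Zic ratios were below the meningeal median, and 3 of the 4, all but Zic5 (0.11), were below both granule lineage medians. No replicate spread is at hand for this comparison.

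Lists of other cell types gave the scale of the differences between the same libraries. Of 15 choroid plexus genes, 13 were lower by the 2-fold rule and 0 higher, with a median of -3.51, a sum of 215 CPM in the cKO and 6158 CPM in the control. Ttr (-8.47) and the bicarbonate transporter Slc4a5 (-7.55) were the lowest, and Otx2 (-0.87) and Prlr (-0.13) the closest to 0. By that rule 6 of the 10 brainstem and midbrain neuron genes that reached 10 reads were lower and 0 higher, and the median was -1.69, with Hoxa3, at 0 cKO reads, placed at a floor of 3 reads. The summed level of the list was 63.2 CPM in the cKO and 54.5 CPM in the control, of which En1 made up 52.8 CPM in the cKO and 34.4 CPM in the control. The tyrosine hydroxylase gene Th (-2.92) and the noradrenaline transporter gene Slc6a2 (-2.80) were its lowest, and Gata3 (2.12, -0.21 to 5.39) and En1 (0.62, 0.47 to 0.77), which the cerebellum also expresses, its highest.

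The lists below stand beside intervals above 0 for 17% and below 0 for 15.5% of all genes, or 49.1% and 21.9% among the well-covered ones. Of 10 genes of unipolar brush cells and cerebellar nuclei, 6 had intervals below 0 and 0 above, with a median of -0.39. Lmx1a (94 cKO and 235 control reads, -1.20, -1.56 to -0.85) and Lhx2 (10 cKO and 25 control reads, -1.20, -2.43 to -0.10) were its lowest. Both passed the 2-fold rule, which 2.2% of all genes met in the lower direction. Lmx1a is also on the choroid plexus list, and Meis2 and Lhx9 are also on the granule neuron progenitor list. Calb2 (0.02) and Eomes (-0.04) were the highest of the list. Of 12 genes of cerebellar GABAergic cells, 5 had intervals above 0 and 2 below, with a median of 0.14, from the glycine transporter gene Slc6a5 (-0.99) and Pax2 (-0.25) to Foxp2 (0.42) and Pcp2 (0.71). Housekeeping genes had a median of 0.12, from B2m (-0.21) and Pgk1 (-0.18) up to Gapdh (0.42), with 7 of 15 intervals above 0 and 3 below. The spread of the 4 Zic ratios, from -0.02 to 0.11, was narrower than that of each of these lists, which also have more members and mostly fewer reads per gene.

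**Figure D4:**
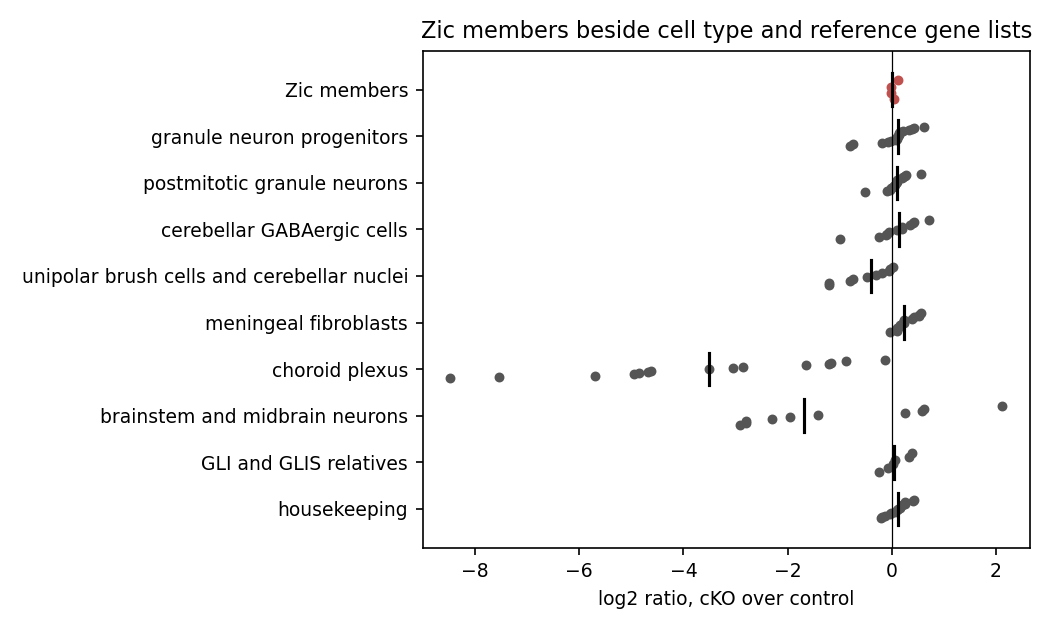
Log2 ratios, cKO over control, of the 4 Zic members in the top row and of the genes of 9 lists below it, 1 dot per gene with at least 10 reads and a bar at each median. The Zic dots lie between -0.02 and 0.11, while choroid plexus genes reach -8.47.

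With 1 library per genotype, the likeness of another gene to a Zic gene comes down to a single ratio. Among genes within 1.5-fold of the total reads of each member, the nearest in log2 ratio were Fabp7, a radial glial fatty acid binding protein gene, and the RNA helicase gene Ddx5 for Zic1, within 0.00047. For Zic2 they were the cathepsin gene Ctsb and the synaptic scaffold gene Shank1, within 0.0019. For Zic4 they were the calcineurin subunit gene Ppp3cb and the ubiquitin ligase gene Mgrn1, within 0.00062. For Zic5 they were the calcium channel gene Cacna1a and the telomere maintenance gene Ctc1, within 5.2e-05. Such neighbours are plentiful: 45 of 93 candidate genes lay within 0.1 of Zic1, 153 of 361 within 0.1 of Zic2, 545 of 1206 within 0.1 of Zic4 and 721 of 1686 within 0.1 of Zic5.

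The small ratios of the Zic genes depended on the scaling of the libraries. Over TMM, upper quartile, median-of-ratios, library total and total without mitochondrial genes, the log2 ratio ran from 0.0048 to 0.03 for Zic1, from -0.05 to -0.02 for Zic2, from -0.05 to -0.02 for Zic4 and from 0.08 to 0.11 for Zic5. The interval of Zic1 held 0 with the library total (-0.03 to 0.04), with median-of-ratios scaling (-0.02 to 0.05) and with the total without mitochondrial genes (-0.02 to 0.04). With the library total, that of Zic2 (-0.09 to -0.0012) narrowly excluded it. With the housekeeping median set to 0, which shifts every gene by -0.12, the ratio was -0.09 for Zic1, -0.14 for Zic2, -0.15 for Zic4 and -0.01 for Zic5. The interval of Zic5 then held 0 (-0.09 to 0.07), while those of Zic1 (-0.12 to -0.06), Zic2 (-0.19 to -0.10) and Zic4 (-0.22 to -0.08) lay below it.

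**Figure D5:**
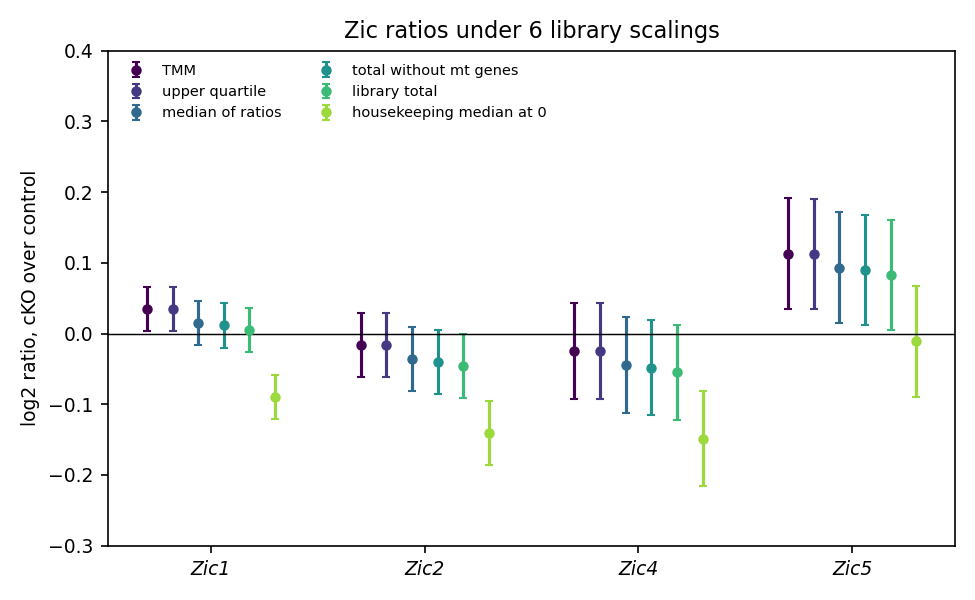
Log2 ratios, cKO over control, of the 4 Zic members under 6 scalings of the libraries, with exact binomial 95% intervals. With 5 of the scalings the points stay between -0.05 and 0.11, and with the housekeeping median at 0 all 4 drop by 0.12 to values from -0.15 to -0.01.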

How the data were processed

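RNA of postnatal day 3 cerebellum was made into TruSeq libraries, per the labels' protocols. The deposited table holds raw read counts per gene, 1 column per genotype, and the authors' normalized values on the CPM scale. The authors' fold change is the ratio of those CPM values, and the deposited log2 column is its logarithm. The deposited p-value column has no stated tool. The submitters' processing notes name Bowtie2 2.2.3, TopHat2 2.0.12, HTSeq 0.6.0 and build mm9, with no roles. The sources used here do not say how counting treated strand, overlapping genes or pooled samples. Columns of samples left unused numbered 0.

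Counts were scaled by TMM in edgeR 4.0.16 under R 4.3.3, with factors of 0.990 for the cKO and 1.01 for the control. DESeq2 1.42.0 gave the median-of-ratios scaling. Ratios carry exact binomial 95% intervals, levels exact Poisson intervals and pairs of genes exact conditional intervals (scipy 1.17.1, Python 3.11.15). All cover counting error only, and reads lack molecular identifiers, so they are not independent molecules. With 1 library per genotype no p-value was computed. Calls needed at least 10 reads over both libraries. The interval code was tested on simulated counts. Exon lengths and transcripts came from GENCODE vM21 (GRCm38), a build other than mm9, so genes were joined to the counts by gene identifier. The lengths, overlaps and neighbours given here follow GRCm38 and may differ from those used in counting. Start regions were in the RefSeq table for Zic1, Zic4 and Zic5, 3 of the 4 members.

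The members and the gene lists were chosen with earlier results of these data known. Named were the members, Prdm16, all genes of the GLI and Zic-linked lists, the 2 highest and 2 lowest of every other list, and the 2 genes nearest in ratio to each member. Some genes this rule names are not reported here. Neighbouring genes, the minimum of 5000 reads and the shared-window counts were added after the values were seen. Alternatives were other scalings, read minimums of 0 and 50, 1.5-fold, and 99% intervals.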

Additional observations from a re-analysis of the deposited data

How the results depend on the processing

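With the housekeeping median set to 0, the log2 ratio was -0.089 for Zic1, -0.011 for Zic5 (interval -0.09 to 0.07), -0.14 for Zic2, -0.15 for Zic4, -0.10 for Zic1 plus Zic4 and -0.11 for Zic2 plus Zic5. That scaling shifts all genes alike by construction, so positive ratios below the shift had to change sign, and it gave 1191 genes with intervals above a ratio of 1 and 5829 below. With the library total, Zic1 plus Zic4 stood at -0.0059. With 99% intervals that of Zic1 held 0 (-0.0062 to 0.08), that of Zic5 did not (0.01 to 0.22), and the quotients of Zic2 and of Zic4 over Zic5 stayed below 1, with upper limits of 0.992 and 0.998. The 2-fold counts of 228 higher and 414 lower genes became 55 and 176 at a minimum of 50 reads and 425 and 736 at 1.5-fold, and the higher count 119 with 99% intervals. At a minimum of 5000 reads, chosen after seeing the data, 776 intervals lay above a ratio of 1 and 346 below. No replicate could be left out, and no paired analysis was possible because each genotype has 1 library. At this depth and with TMM scaling the intervals of the members span from 4.45% (Zic1) to 11.7% (Zic5) of the control level. Each is wider than the difference it measures, which was 2.45% for Zic1 and 8.16% for Zic5.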

Other observations

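Genes next to the Zic loci were looked up after the values were seen: the nearest 2 with at least 10 reads on each side of a locus, and those within it. All had fewer reads than any Zic member. Beside Zic2 and Zic5, Clybl, a citramalyl-CoA lyase gene, had 619 cKO and 590 control reads (log2 ratio 0.19, 0.02 to 0.35), and Pcca, a subunit gene of propionyl-CoA carboxylase on the far side, had 709 cKO and 858 control reads (-0.16, -0.30 to -0.01). Gm5089, which lies between Clybl and Zic5, had 288 cKO and 241 control reads (0.38, 0.12 to 0.63). The noncoding transcript 2610035F20Rik, in the gap of 9.76 kb between Zic5 and Zic2, had 565 cKO and 611 control reads (0.0051, -0.16 to 0.17). Beside Zic1 and Zic4 they were A730094K22Rik (76 cKO and 69 control reads, 0.26, -0.23 to 0.75), Gm37040 (27 cKO and 29 control reads, 0.01, -0.80 to 0.82), Gm29478 (29 cKO and 28 control reads, 0.17, -0.63 to 0.97) and Gm37987 (6 cKO and 12 control reads, -0.88, -2.58 to 0.64), with Gm37477 (73 cKO and 66 control reads, 0.26, -0.24 to 0.77) inside. Gm10837, between Zic2 and Pcca, had 42 cKO and 38 control reads (0.26, -0.41 to 0.93).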
